A study of Mus musculus with 10 samples.

Results

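The canonical Wnt response genes examined here were Axin2, Sp5, Rnf43, Nkd1, Cdx1 and Cdx2, together with the 4 members of the Tcf/Lef family, Lef1, Tcf7, Tcf7l1 and Tcf7l2. They were chosen by symbol, and each was taken as the row of the count table whose Ensembl identifier carries that symbol. They make up 10 of the 30677 genes in the table. All 10 were among the 20027 genes that passed a filter on low counts and were tested.

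The cells were TNGA cells, a mouse embryonic stem (ES) cell line in which a single Nanog allele drives a GFP reporter, kept in serum with leukaemia inhibitory factor (LIF). In the RNA-seq experiment, 3 cultures were exposed for 48 hours to 100 μM MB-3, a small-molecule inhibitor of the histone acetyltransferase Kat2a (Gcn5), and 3 cultures to the vehicle DMSO, which made up 0.1% of the volume in all of them. Polyadenylated RNA was sequenced, and the libraries carry the replicate letters A, B and C in each treatment. The DMSO libraries held 48144367, 51137896 and 46863700 counts and the MB-3 libraries 49334434, 44985772 and 42270312 counts, in letter order. A ChIP-seq experiment on the same cells and treatments gave 1 list of H3K9ac peaks per treatment. As all samples came from 1 cell line, the replicates measure the spread between its cultures.

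In the canonical pathway, a secreted Wnt protein binds a Frizzled receptor and an LRP co-receptor, the destruction complex that degrades β-catenin is disabled, and β-catenin enters the nucleus, where it joins Tcf/Lef factors on DNA and activates their target genes. Many of these targets, such as Axin2, Rnf43 and Nkd1, dampen the pathway in turn, so their RNA is widely used as a readout of Wnt activity. In mouse ES cells Tcf7l1 acts mostly as a repressor of pluripotency genes, and the pathway supports self-renewal but also drives entry into a primitive streak fate.

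Defining markers of ES cells were abundant in both treatments. The 6 ES cell markers (Pou5f1, Nanog, Sox2, Zfp42, Esrrb and Klf4) summed on average to 2640 CPM (counts relative to the normalized library size) over the DMSO libraries and to 2621 CPM over the MB-3 libraries. In edgeR, 0 of the 6 passed the test described below, with or without the replicate letter (1 at an unadjusted p under 0.05 in either fit, and 0 in DESeq2 and limma-voom). Klf4 was lower in the fit with the letter when letter C was left out.

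Among the Wnt response genes, levels per length of exon (CPM per kb) set Tcf7 and Tcf7l1 apart from the other 8. Tcf7 stood at 23.7 ± 0.861 CPM per kb (mean ± SD, n = 3) in DMSO and Tcf7l1 at 23.1 ± 1.96 CPM per kb, and their ranges overlapped. Sp5, a zinc finger transcription factor, followed at 1.91 ± 1.13 CPM per kb and Axin2, a scaffold of the destruction complex, at 1.27 ± 0.295 CPM per kb, again with overlapping ranges. Cdx2, Tcf7l2, Nkd1, Lef1 and Cdx1 lay between 0.717 and 0.425 CPM per kb. From Sp5 to Cdx1 each pair of neighbours in this order overlapped in range, except that Tcf7l2 (0.589 to 0.641 CPM per kb) lay wholly above Nkd1 (0.398 to 0.538 CPM per kb). Rnf43, a ubiquitin ligase of the plasma membrane that removes Frizzled receptors, was lowest at 0.130 ± 0.0188 CPM per kb, with each of its DMSO libraries below each of those of the other members. Nearly all of the Tcf/Lef family's RNA per length therefore came from Tcf7 (49.5% of the sum in DMSO) and Tcf7l1 (48.3%).

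**Figure D1:**
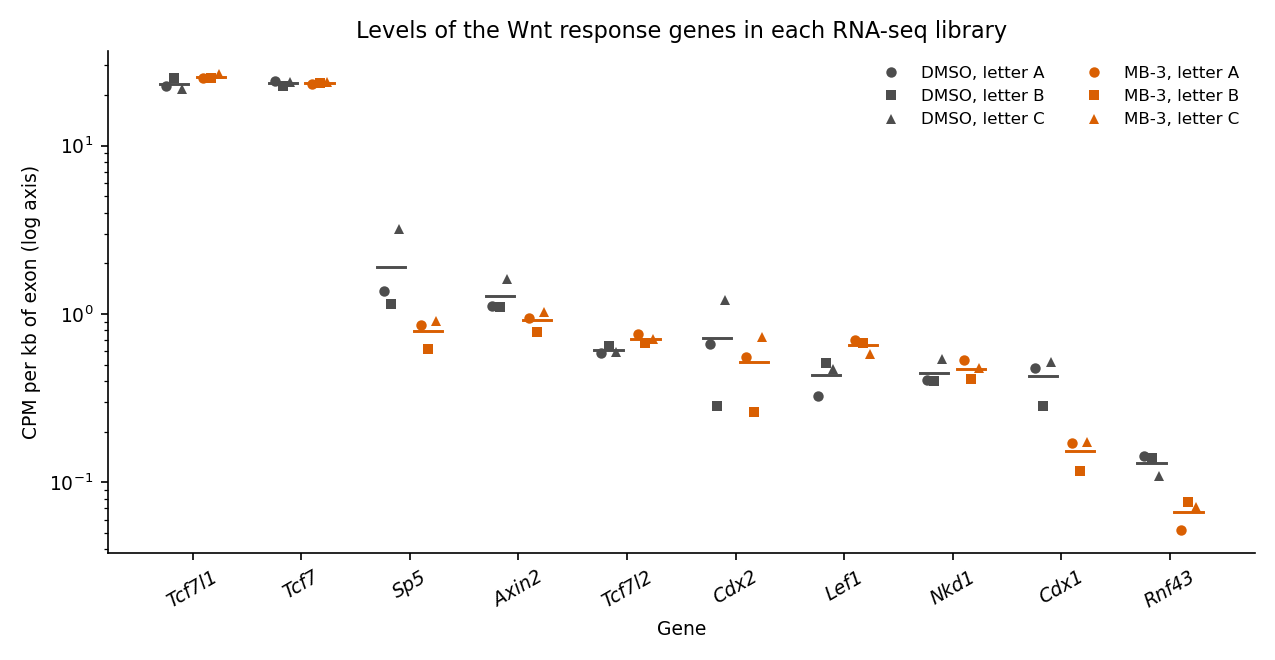
Level of each of the 10 Wnt response genes in each RNA-seq library, in CPM per kb of exon on a log axis. Points are libraries, with the shape giving the replicate letter, and horizontal lines are means of 3 libraries. Tcf7 and Tcf7l1 lie above 20 CPM per kb in each library, while Sp5, Axin2, Cdx1 and Rnf43 lie lower in the MB-3 libraries than in the DMSO libraries.

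The question put to these genes was whether inhibition of Kat2a altered the Wnt response, and how any such difference compared with the differences between cultures. Sp5, Axin2, Cdx1 and Rnf43 fell with MB-3 and Lef1 rose, by 1.4-fold to 2.7-fold, when the replicate letter was a term of the model. The other 5 genes did not pass. In the model without the letter, with all 6 libraries and the filter on low counts, none of the 10 passed.

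In numbers, the quasi-likelihood test of edgeR, in a model of treatment alone and with Benjamini-Hochberg adjustment, called 41 of 20027 genes at an adjusted p under 0.05 (0.205%) and 0 of the 10 members. On the same model limma-voom called 0 of the 10 and DESeq2 0 of the 9 to which it gave an adjusted p, all but Cdx1. At an unadjusted p under 0.05, 7 of the 10 passed, against 10.9% of all tested genes. When the replicate letter was added as a block, the same test called 1425 genes (7.12%) and 5 of the 10 members. Of these, 4 were lower with MB-3, against 3.9% of all tested genes, and 1 was higher, against 3.22%. The MB-3 and DMSO libraries did not overlap for 6 of the 10 genes, compared with 15.6% of all tested genes. Within the letters, 7 of the 10 genes differed in the same direction in all 3 pairs of libraries, compared with 40.6%. The median log2 fold change was -0.24 for the 10 genes and -0.001 for all tested genes, and the median size of the change was 0.47 and 0.098. The 10 genes were chosen with earlier results of these data known. That choice may have raised these shares and medians, so they are a description and no test of enrichment. These were RNA levels of whole cultures, in which fewer cells that express a gene and less of its RNA per cell cannot be told apart.

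With the block and letter A left out, 3 of the 10 genes passed (Axin2, Sp5 and Cdx1), against 4.71% of all tested genes in that fit. Without letter B there were 5 (Axin2, Sp5, Cdx1, Lef1 and Tcf7l1), against 4.51%, and without letter C there were 4 (Sp5, Cdx1, Lef1 and Rnf43), against 5.15%. Sp5 and Cdx1 passed in each of these fits. With treatment only, Sp5 and Cdx1 also passed without a filter on low counts (edgeR, adjusted p = 0.0214 and 0.0412), where 0.632% of all tested genes did. Lef1, Sp5 and Cdx1 passed with treatment only when DMSO library B was left out (edgeR, adjusted p = 0.0248, 0.00666 and 0.0145), against 2.55% of all tested genes, and 0 of the 10 passed when any of the other 5 libraries was left out.

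**Figure D2:**
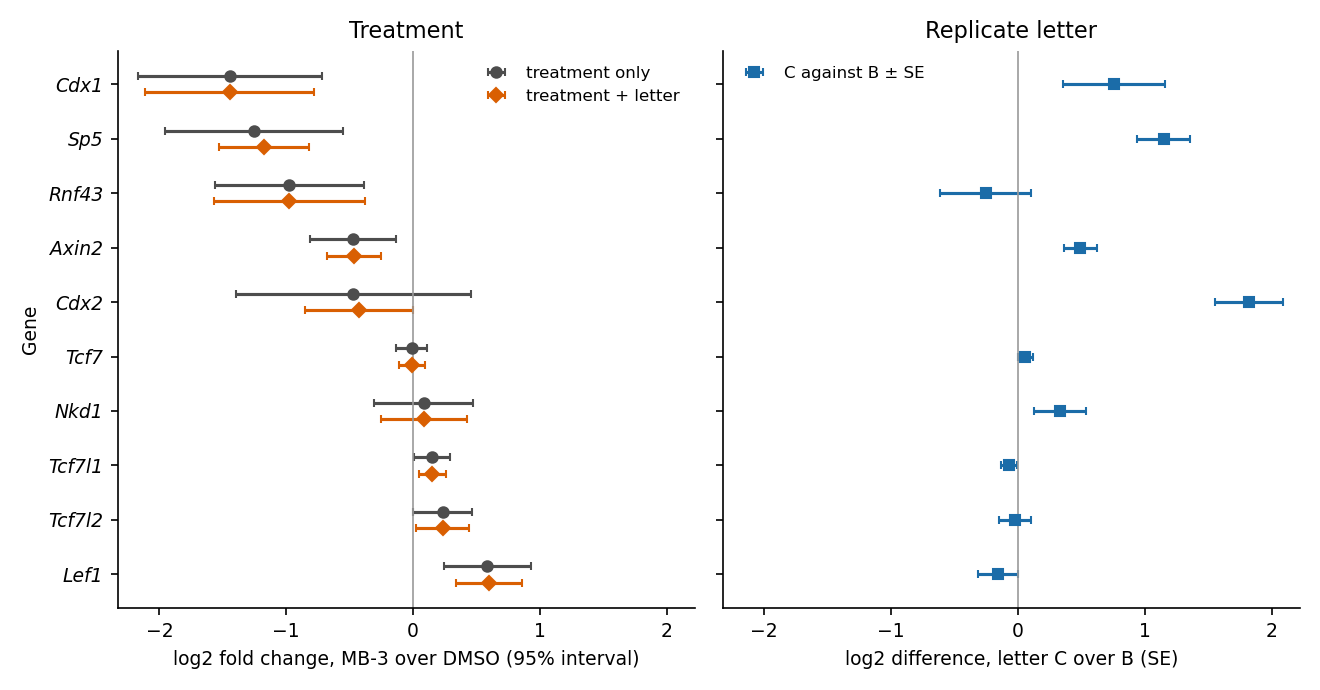
Left, log2 fold change of MB-3 over DMSO for each of the 10 genes with its 95% interval, from the fit with treatment only and from the fit with treatment and replicate letter. Right, log2 difference of letter C over letter B with its SE, on the same scale. Adding the letter narrowed the interval for Sp5 from -1.96 to -0.55 to -1.53 to -0.82, and the difference between letters for Cdx2 (1.82) was larger than its difference between treatments.

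Sp5 (GRCm38, chr2:70474923-70477729, plus strand) is a direct transcriptional target of Wnt signalling. It stood at 2.87, 2.41 and 6.73 CPM in the DMSO libraries A, B and C and at 1.81, 1.30 and 1.91 CPM in the MB-3 libraries. The groups did not overlap, and in both treatments letter C was the highest library and letter B the lowest. The log2 fold change was -1.25 ± 0.326 (SE) with treatment only (edgeR, adjusted p = 0.173) and -1.17 ± 0.173 with the letter (adjusted p = 1.96e-05), a 2.26-fold fall. Within letters the log2 difference was -0.64 in A, -0.85 in B and -1.76 in C. Without letter C the change was -0.77 (edgeR with the block, adjusted p = 0.00431).

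Axin2 (GRCm38, chr11:108920349-108950783, plus strand) had 6.15, 6.02 and 8.89 CPM in the DMSO libraries and 5.20, 4.28 and 5.67 CPM in the MB-3 libraries. Each MB-3 library was below each DMSO library, and letter C was again the highest in both treatments. The log2 fold change was -0.47 ± 0.158 with treatment only (edgeR, adjusted p = 0.283) and -0.46 ± 0.105 with the letter (adjusted p = 0.00443), which corresponds to a 1.38-fold fall. Without DMSO library C alone the change with treatment only was -0.27 (edgeR, adjusted p = 0.741). Without letter C it was -0.36 (edgeR with the block, adjusted p = 0.0839), past the threshold no longer. The annotated gene Gm11670 shares 209 bases of exon with Axin2 on the opposite strand and was not analysed here.

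The promoter sequences of these genes are shown because the Tcf/Lef factors recognise a short motif. Its form CTTTGA was searched for on either strand (TCAAAG when read on the other). Forms that lack CTTTGA were neither searched for nor marked, and the motif below means CTTTGA. RefSeq promoter windows of GRCm38.p6, from 250 bases before to 50 bases after a start, were at hand for 9 of the 10 genes, with 15 windows in all. The motif was in 2 of the 15, no more than in the 16.0% of all 32851 windows that hold it, so its presence says nothing particular about these genes. The 2 were the window of Sp5, which fell (motifs starting at -204 and -104, counted back from the start), and that of an internal start of Lef1, which rose (-180 and -120). The windows of Axin2 and Rnf43, which also fell, held none. The longer form, CTTTGAA or CTTTGAT, which contains the short form, was in the Sp5 window and in 8.65% of all windows. The 250 bases before the start are given below 5′ to 3′ for Sp5 (chr2:70474673-70474922, plus strand), for the internal start of Lef1 (chr3:131156044-131156293, plus strand) and, as a target gene without the motif in its window, for Axin2 (chr11:108920099-108920348, plus strand), with the motif in capitals.
Sp5: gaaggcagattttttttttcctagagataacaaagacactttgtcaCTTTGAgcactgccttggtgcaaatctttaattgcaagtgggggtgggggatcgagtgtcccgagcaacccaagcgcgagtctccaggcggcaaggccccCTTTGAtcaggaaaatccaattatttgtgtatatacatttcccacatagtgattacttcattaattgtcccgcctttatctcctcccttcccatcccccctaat
Lef1: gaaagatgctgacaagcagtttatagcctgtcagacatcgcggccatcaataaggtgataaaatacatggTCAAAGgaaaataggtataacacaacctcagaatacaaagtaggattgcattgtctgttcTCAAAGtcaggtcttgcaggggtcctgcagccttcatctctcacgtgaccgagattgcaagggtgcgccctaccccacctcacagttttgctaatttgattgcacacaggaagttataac
Axin2: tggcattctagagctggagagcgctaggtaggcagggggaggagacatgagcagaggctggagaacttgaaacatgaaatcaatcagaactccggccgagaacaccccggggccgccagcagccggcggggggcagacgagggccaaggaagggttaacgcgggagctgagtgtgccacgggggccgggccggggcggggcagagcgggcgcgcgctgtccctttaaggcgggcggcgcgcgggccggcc
In Sp5 both motifs read CTTTGA on the strand of the gene, the second followed by a T that makes the longer form. In Lef1 both read TCAAAG, on the opposite strand. A match of letters is a description of the window and shows no binding.

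Rnf43 and Nkd1 are, like Axin2, feedback inhibitors, the latter through binding to Dishevelled, but their values differed. Rnf43 (GRCm38, chr11:87662722-87735539, plus strand) was measured at 0.935, 0.917 and 0.713 CPM in the DMSO libraries and at 0.342, 0.501 and 0.466 CPM in the MB-3 libraries. The groups did not overlap, and letter C was not the highest library here. Its log2 fold change was -0.98 ± 0.274 with treatment only (edgeR, adjusted p = 0.216) and -0.98 ± 0.292 with the letter (adjusted p = 0.0368), a 1.97-fold fall that rested on 17 to 46 counts per library. Adding the letter did not lower the SE. The unadjusted p from edgeR was 0.00342 with treatment only and 0.00224 with the letter, a smaller difference than between the adjusted values. Without letter A the adjusted p from edgeR with the block was 0.306, and without letter B it was 0.148.

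Nkd1 (GRCm38, chr8:88521354-88594884, plus strand) had 1.85, 1.81 and 2.45 CPM with DMSO and 2.43, 1.87 and 2.17 CPM with MB-3. The ranges overlapped almost wholly. The log2 fold change with the letter was 0.087, with a 95% interval of -0.25 to 0.43 (edgeR, adjusted p = 0.832).

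Cdx1 and Cdx2 encode homeobox transcription factors that pattern the posterior embryo, and Cdx2 also specifies trophectoderm. Cdx1 stood at 0.831, 0.498 and 0.902 CPM in the DMSO libraries and at 0.301, 0.205 and 0.303 CPM in the MB-3 libraries. The groups did not overlap, and letter B was the lowest in both. The log2 fold change was -1.45 ± 0.336 with treatment only (edgeR, adjusted p = 0.12) and -1.45 ± 0.327 with the letter (adjusted p = 0.00454). This was a 2.73-fold fall, with a 95% interval of the log2 fold change of -2.11 to -0.78 that overlapped that of Sp5, and it rested on 9 to 43 counts per library.

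Cdx2 (GRCm38, chr5:147300805-147307270, minus strand) had 1.496, 0.638 and 2.73 CPM with DMSO and 1.25, 0.592 and 1.66 CPM with MB-3. The order of the letters, C over A over B, was the same in both treatments, and the groups overlapped widely. Each letter was lower with MB-3, with log2 differences of -0.25 in A, -0.093 in B and -0.69 in C. The log2 fold change with the letter was -0.43, with a 95% interval of -0.85 to -0.0024, and did not pass (edgeR, adjusted p = 0.246). Without letter C it was -0.21 (edgeR with the block, adjusted p = 0.793). With treatment only and without DMSO library C alone, the change reversed to 0.131 (edgeR, adjusted p = 0.973).

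**Figure D3:**
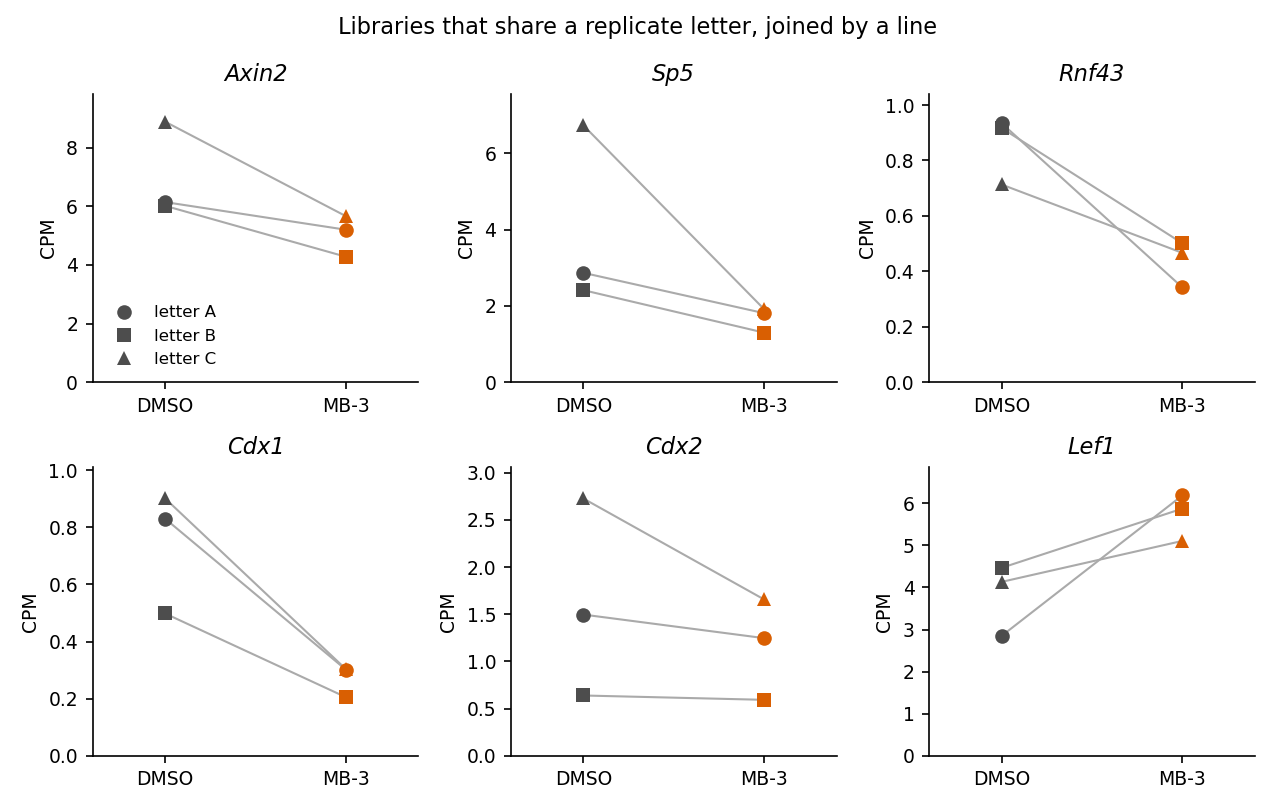
CPM of 6 of the Wnt response genes in each library, with DMSO at left and MB-3 at right in each panel, the axis starting at 0 and lines joining libraries of the same replicate letter. Each line descends for Axin2, Sp5, Rnf43, Cdx1 and Cdx2 and ascends for Lef1. Letter C is the highest DMSO library for Axin2, Sp5, Cdx1 and Cdx2.

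Of the Tcf/Lef factors, Lef1, an activator that is itself induced by Wnt signalling in many tissues, was the member that rose. Lef1 (GRCm38, chr3:131110471-131224356, plus strand) had 2.85, 4.47 and 4.13 CPM with DMSO and 6.19, 5.88 and 5.11 CPM with MB-3. The groups did not overlap. The log2 fold change was 0.59 ± 0.158 with treatment only (edgeR, adjusted p = 0.194) and 0.60 ± 0.128 with the letter (adjusted p = 0.00266), a 1.51-fold rise. Letter A gave the largest difference, 1.09 on the log2 scale, against 0.39 in B and 0.30 in C, and without letter A the change was 0.35 (edgeR with the block, adjusted p = 0.174). On the opposite strand the annotated gene Gm43352 shares 1208 bases of exon with Lef1 and had 0 to 2 counts per library.

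Tcf7l1 (GRCm38, chr6:72626378-72789254, minus strand) stood at 88.7, 99.3 and 84.4 CPM in the DMSO libraries and at 99.1, 98.2 and 105.0 CPM in the MB-3 libraries. The groups overlapped, as DMSO library B was as high as the MB-3 libraries A and B. The log2 fold change with the letter was 0.15 ± 0.0516, with a 95% interval of 0.047 to 0.26 (edgeR, adjusted p = 0.0708). It passed without letter B (log2 fold change 0.23, edgeR with the block, adjusted p = 0.0197). Letter B was the letter in which the libraries differed by only -0.017 on the log2 scale. Gm15401, which shares 179 bases of exon with Tcf7l1 on the opposite strand, had 3 to 8 counts per library.

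Tcf7l2 (GRCm38, chr19:55741820-55933654, plus strand) had 5.17, 5.62 and 5.20 CPM with DMSO and 6.69, 5.90 and 6.20 CPM with MB-3. Each MB-3 library was above each DMSO library, but the difference did not pass (log2 fold change 0.23 ± 0.103 with the letter, edgeR, adjusted p = 0.195).

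Tcf7, an activator in most settings, had the smallest ratio of highest to lowest library of the 10 in each treatment. Tcf7 (GRCm38, chr11:52252371-52283014, minus strand) had 63.8, 59.6 and 63.0 CPM with DMSO and 60.8, 61.3 and 62.9 CPM with MB-3, and the 95% interval of its log2 fold change with the letter ran from -0.11 to 0.091 (edgeR, adjusted p = 0.938). The groups overlapped. Lef1 made up 0.907% ± 0.199 of the family's RNA per length in DMSO and 1.29% ± 0.155 (SD, n = 3) in MB-3.

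The same 6 libraries showed how far cultures differed apart from the treatment. The replicate letter had an effect past the threshold on 3 of the 10 genes, Cdx2, Sp5 and Axin2, against 7.84% of all tested genes (edgeR, Benjamini-Hochberg adjusted p = 9.82e-05, 0.000954 and 0.0282). The same 3 genes passed in limma-voom. Cdx2 was 1.82 ± 0.266 higher on the log2 scale in letter C than in letter B, Sp5 1.15 ± 0.208 and Axin2 0.49 ± 0.128. The size of the treatment difference divided by that of the difference between C and B, both from the fit with treatment and letter, was 1.02 for Sp5, 0.94 for Axin2 and 0.234 for Cdx2. For Lef1, Rnf43 and Cdx1 it was 3.79, 3.83 and 1.90, and the letter had no effect past the threshold on any of these 3. Their differences of C over B on the log2 scale were -0.16 ± 0.156, -0.25 ± 0.355 and 0.76 ± 0.402. With SEs of that size these 3 ratios are imprecise. For Lef1 the gap between C and B understates the spread between cultures, as DMSO library A (2.85 CPM) lay further from B (4.47 CPM) than C did. Among the DMSO libraries alone, the highest value was 4.27 times the lowest for Cdx2, 2.79 times for Sp5, 1.81 times for Cdx1, 1.57 times for Lef1, 1.48 times for Axin2, 1.31 times for Rnf43 and 1.07 times for Tcf7. This spread of single libraries was set beside the fold difference between treatments from the fit with the letter. For Cdx2, Sp5, Lef1, Axin2 and Tcf7 the spread was larger (1.34, 2.26, 1.51, 1.38 and 1.01), and for Cdx1 and Rnf43 it was smaller (2.73 and 1.97). It was also larger for Nkd1 (1.353 times, against 1.062) and Tcf7l1 (1.177, against 1.111), and smaller for Tcf7l2 (1.087, against 1.175). Among the MB-3 libraries alone, the spread was smaller than the treatment difference for Sp5 (1.473), Lef1 (1.212), Axin2 (1.324) and Tcf7l1 (1.069). There it was also smaller for Cdx1, Rnf43 and Tcf7l2, and larger for Cdx2 (2.797), Tcf7 (1.036) and Nkd1 (1.302). The labels do not say what the letter stands for.

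Several markers of the primitive streak were lower with MB-3, and some of them differed between letters. The 8 primitive streak markers (T, Mixl1, Eomes, Gsc, Lhx1, Evx1, Mesp1 and Foxa2) summed to 26.7, 16.2 and 48.9 CPM in the DMSO libraries A, B and C and to 10.4, 8.13 and 14.1 CPM in the MB-3 libraries. C was highest and B lowest in each treatment, as for Sp5, Axin2, Cdx1 and Cdx2. Of the 6 markers that were tested, 1 passed with treatment only (Lhx1, edgeR, adjusted p = 0.0243) and 5 passed with the letter, all lower with MB-3 (T, Mixl1, Eomes, Lhx1 and Evx1), where 3.9% of all tested genes were lower. With treatment only, DESeq2 called 2 of the 4 to which it gave an adjusted p, and limma-voom called 0. Evx1 did not pass when letter A was left out. The letter had an effect past the threshold on 3 of the 6 (T, Mixl1 and Eomes, edgeR), against 7.84% of all tested genes. T (Brachyury), the most abundant and therefore the largest single part of the sum, is itself a Wnt target. The part of these markers in the values of Sp5, Axin2, Cdx1 and Cdx2 was not tested.

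Of the trophoblast markers, Elf5 had 0 to 3 counts per library, and the list summed to 73.1 CPM with DMSO and 77.6 CPM with MB-3, most of it Tfap2c, which ES cells also express. With the letter Tfap2c was higher and Eomes, which stands in both this list and that of the primitive streak, lower. Eomes passed whichever letter was left out, and Tfap2c passed in none of these fits. The primitive endoderm list summed to 10.2 and 8.86 CPM with 0 of 5 tested markers passing in edgeR or limma-voom, 0 of the 3 with an adjusted p in DESeq2 and 0 at an unadjusted p under 0.05. The fibroblast feeder list summed to 8.54 and 5.88 CPM, with Col1a1 and Col1a2 lower in edgeR with the letter (adjusted p = 0.00226 and 0.00012) but not with treatment only (0.145 and 0.106), and with Postn and Lum at no more than 6 counts in any library. Col1a1 and Col1a2 passed with the letter whichever letter was left out, and DESeq2 with treatment only called Col1a2. Their part in the results was not tested either.

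The wider Wnt pathway was described with 97 further genes in 7 lists, of which 95 were in the table and 80 were tested (Wnt1 and Wnt2 were not analysed here). With treatment only, edgeR called 0 of the 80, although 22 had an unadjusted p under 0.05 (10.9% of all tested genes had), limma-voom called 0, and DESeq2 called 1 (Fzd10) of the 75 to which it gave an adjusted p. With the letter it called 18, or 22.5% of those tested against 7.12% of all tested genes, 13 of them lower and 5 higher with MB-3. With letter A left out it called 12 of 80, against 4.71% of all tested genes, with letter B left out 13 of 82, against 4.51%, and with letter C left out 11 of 80, against 5.15%. The median log2 fold change over the 80 was -0.054 in the fit with the letter. The lists too were chosen with earlier results of these data known, so their shares are a description and no test of enrichment.

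Of 13 tested genes for Wnt ligands and the proteins that secrete them, 5 were lower with the letter, against 3.9% of all tested genes. In the same fit 0 were higher, against 3.22%, and 8 did not pass. The median log2 fold change over the 13 was -0.57 in that fit. Wnt3, the ligand that induces the primitive streak, stood at 2.41, 1.14 and 4.89 CPM in the DMSO libraries and at 0.864, 0.660 and 1.80 CPM in the MB-3 libraries. Each letter was lower with MB-3, though the groups overlapped, and the log2 fold change with the letter was -1.31 ± 0.186 (edgeR, adjusted p = 1.12e-05). Wls, which carries Wnt proteins to the cell surface, had 18.0, 13.3 and 23.5 CPM with DMSO and 12.7, 9.77 and 14.0 CPM with MB-3. Its log2 fold change was -0.57 ± 0.0733 (edgeR, adjusted p = 2.47e-06). Wnt4 (-1.47), Wnt7a (-0.92) and Wnt9a (-0.64) were the other 3, and Wnt3, Wnt4 and Wls passed whichever letter was left out, whereas Wnt7a and Wnt9a passed with none left out only. Porcn, the acyltransferase that lipidates Wnt proteins and the member of this list with the highest level per length, had a log2 fold change of 0.16 (edgeR with the letter, adjusted p = 0.213).

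Of 17 tested genes for Frizzled, LRP and LGR receptors, R-spondins and Znrf3, 3 were higher with the letter, against 3.22% of all tested genes. In the same fit 2 were lower, against 3.9%. Fzd7, the receptor with the highest level per length here, rose from 159 ± 3.84 to 179 ± 7.87 CPM (log2 fold change 0.17, edgeR, adjusted p = 0.0135). The co-receptor gene Lrp6 and the R-spondin receptor gene Lgr4 were the other 2 that rose, by 0.17 and 0.18 on the log2 scale. Fzd10 fell by 0.45 on the log2 scale and Rspo3, an R-spondin that stabilises Frizzled receptors, fell by 1.39, on 9 to 64 counts per library. Rspo3 did not pass when letter C was left out, Fzd7 when letter A or C was, Lrp6 when A or B was and Lgr4 when C was.

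Among 9 tested secreted and membrane inhibitors, Notum, which strips the lipid from Wnt proteins, was higher (log2 fold change 0.38, edgeR with the letter, adjusted p = 0.00638). Exons of Notum overlap those of Notumos on the opposite strand, over 708 bases. Sfrp1, the most abundant of them per length, was lower (-0.16, adjusted p = 0.0423 in the same edgeR fit). In that fit 3.22% of all tested genes were higher and 3.9% lower. In edgeR with the letter, 0 of the 12 Dishevelled and destruction complex genes passed (2 at an unadjusted p under 0.05, and 0 in DESeq2 and limma-voom with treatment only), and their median log2 fold change was 0.017. Ctnnb1, which encodes β-catenin, was measured at 712 ± 12.6 CPM over the DMSO libraries and 720.5 ± 26.0 CPM over the MB-3 libraries, a log2 difference of 0.017 that did not pass (edgeR with the letter, adjusted p = 0.877). Of the 13 genes for β-catenin and its nuclear cofactors, the co-repressor gene Tle4 was higher (0.22, edgeR with the letter, adjusted p = 0.00343) and its shorter relative Tle5 lower (-0.16, adjusted p = 0.0493). Notum did not pass when letter A was left out, Sfrp1 and Tle5 when A or B was, and Tle4 when C was.

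Of 12 other target genes, 3 were lower with the letter, against 3.9% of all tested genes, and 0 were higher, against 3.22%. The median log2 fold change over the 12 was -0.40 in that fit. T had 16.5, 9.05 and 32.5 CPM with DMSO and 4.68, 3.58 and 7.44 CPM with MB-3. Its groups did not overlap, and its log2 fold change was -1.82 ± 0.0988 (edgeR with the letter, adjusted p = 1.47e-14). Fgf8, a growth factor expressed in the streak, fell by 2.15 on the log2 scale and Zfp703 by 1.06. T and Fgf8 passed whichever letter was left out, and Zfp703 did not pass without letter C. Myc and Ccnd1, targets in many tissues, had log2 fold changes of 0.16 and 0.12 that did not pass. When letter A was left out Cdx4 and Msx1 also passed as lower, and when letter B was left out Myc passed as higher. Of 4 genes that Tcf7l1 represses in ES cells, Tfcp2l1 was lower (-0.17, edgeR with the letter, adjusted p = 0.0142), while Nanog (-0.076), Esrrb (-0.067) and Klf2 (0.035) did not pass. Tfcp2l1 did not pass when letter A or B was left out.

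**Figure D4:**
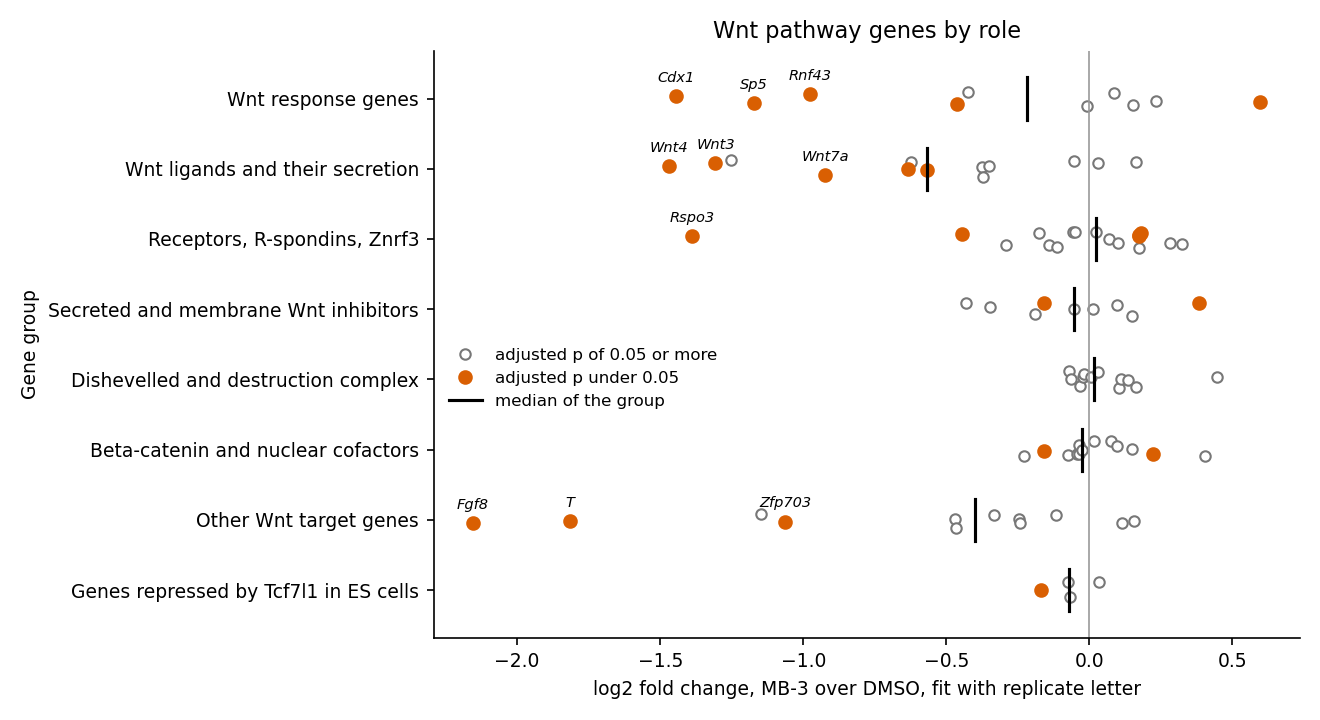
Log2 fold change of MB-3 over DMSO, from the fit with replicate letter, for the 10 Wnt response genes and for 80 further Wnt pathway genes grouped by role. Points are genes, filled where the adjusted p from edgeR was under 0.05, with names on filled points beyond 0.9 in size, and vertical bars are group medians. The ligand and target gene groups lie to the left, with medians of -0.57 and -0.40 in this fit, and the destruction complex group at 0.017 has no filled point.

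The gene profiles most like those of 3 members were found by Pearson's r of log2(CPM + 0.1) over the 6 libraries among 15959 genes of at least 1 CPM on average. For Sp5 they were Card10 (0.997), Spint1 (0.994) and Cdc42ep1 (0.991), for Axin2 they were Yaf2 (0.996), Sesn2 (0.995) and Plekhm2 (0.994), and for Lef1 they were Pla2g6 (0.993), Pdk2 (0.987) and Rad1 (0.983). High values over the 6 libraries were not limited to the genes named. For Sp5, Axin2 and Lef1, 185, 170 and 30 of the 15959 genes exceeded 0.95. The 6 points share treatment and letter.

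H3K9ac, an acetylation that Kat2a places on histone H3 at active promoters, was compared between the peak lists by position only. Peaks were tied to genes through the published assignment of each peak to its nearest gene, of which 1999 of 11724 rows were used for DMSO and 1999 of 4673 for MB-3. On chromosome 11 the DMSO rows reached position 100943990 (mm9), 7 of the 10 members lie on chromosomes that these rows did not reach, and Axin2 lies past that position on chromosome 11 of GRCm38. A DMSO peak could therefore be looked for at Tcf7 and Rnf43 only. Of these, Tcf7 had a peak in the rows used, a DMSO peak of 400 bases at chr11:52096180-52096579 (mm9) that overlapped no MB-3 peak. The same held for 63.4% of the 1999 DMSO peaks in these rows and for 64.2% of all 11724, taking 1 shared base as an overlap. Among the wider Wnt pathway genes, 4 DMSO peaks were assigned to Fzd7, of which 1 was overlapped by an MB-3 peak over 16.3% of its length. Of the 3 assigned to Fzd5, 1 was overlapped, by 2 MB-3 peaks that covered 78.5% of it. Of the 3 assigned to Znrf3, 1 was overlapped, over 89.0% of its length. The single DMSO peak of Dvl2 was overlapped over 79.6% of its length, and those of Wnt10a, Fbxw11 and Tfcp2l1 overlapped no MB-3 peak. Each list came from duplicates that, by the study's methods, were merged because they held rather few reads, so there is no spread to set beside these positions. Tcf7 RNA, as given above, had a log2 fold change of -0.01.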

How the data were processed

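The deposited RNA-seq table holds raw counts per Ensembl gene, which the authors made from reads aligned to mm10 with Bowtie and counted at exons. Neither the release of the annotation nor whether counting used strand is given in the sources used here. For ChIP-seq the authors aligned reads to mm9 with BWA, merged duplicates and called peaks against input with MACS2, and only the positions were used. The columns of the table name the treatment and the letter of each library. Symbols, coordinates and exon lengths came from GENCODE M21 (GRCm38), which matched 30540 of 30677 identifiers, and promoters from RefSeq.

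Genes were kept by filterByExpr, normalized by TMM and tested with glmQLFit and glmQLFTest of edgeR 4.0.16 in R 4.3.3, with treatment as the only term and then with the replicate letter as a block. The Benjamini-Hochberg adjustment ran over 20027 genes, with 0.05 as the threshold. The median SE of a log2 fold change was 0.101. CPM were computed relative to the TMM-normalized library sizes. Deviations from the group means of libraries that share a letter correlated across all tested genes. The r was 0.115, 0.287 and 0.232 for A, B and C, against a limit of 0.1 for pairing. Each of the other pairs of a DMSO with an MB-3 library had a negative r. That is no separate support, as the deviations within a group sum to 0. The letters, which come from the labels, were therefore taken to pair the samples. DESeq2 1.42.0 and limma-voom (limma 3.58.1) were alternatives, beside other normalizations, other filters, robust fitting and each library or letter left out. The procedure was tested on simulated data in which libraries of the same letter shared an effect. That test took the pairing as given, so it cannot show whether the letters pair the real libraries. All 10 members and the genes past the threshold in each list are named, and the members and lists were chosen with earlier results of these data known.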

Additional observations from a re-analysis of the deposited data

How the results depend on the processing

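The number of genes called depended strongly on the settings. Against 41 with treatment only, edgeR called 25 with upper-quartile factors, 194 without a filter on low counts, 24 with a filter of CPM over 1, 66 with robust fitting and 1425 with the replicate block, while DESeq2 called 183 and limma-voom 18. Leaving out single libraries gave 0 to 520. The counts of 0 came without MB-3 library A (1440 at an unadjusted p under 0.05) and without MB-3 library B (1716), 520 came without DMSO library B, and 3, 5 and 62 came without DMSO library A, DMSO library C and MB-3 library C. In alternatives added after seeing the data, the replicate block called 939, 912 and 1037 genes without letter A, B and C. Of the 10 members, 0 were called with treatment only, 2 without a filter (Sp5 and Cdx1), 5 with the replicate block, 3, 5 and 4 with the block and without letter A, B and C, and 0 to 3 without single libraries, the 3 (Lef1, Sp5 and Cdx1) without DMSO library B. The filter of CPM over 1 removed Cdx1 and Rnf43, and DESeq2 gave Cdx1 no adjusted p. Of 137 log2 fold changes of members over 14 alternatives, 123 kept their direction and side of the threshold, 10 passed it, and 4 reversed, in 3 members that did not pass in either fit. Over single libraries left out, Tcf7 ranged from -0.04 to 0.009, Nkd1 from -0.014 to 0.238 and Cdx2 from -0.857 to 0.131, the last without DMSO library C. Sp5 ranged from -1.518 to -0.655, the smallest change in size coming without DMSO library C. The longer motif was in the window of 1 member, the shorter in those of 2. The cause of these differences was not tested. Cdx1 and Rnf43 had 9 to 46 counts per library, which limits the precision of their values, and the number of reads behind the peak lists is not given in the sources used here.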
